A study of Mus musculus with 2 samples.

Results

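The Mir302 and Mir367 cluster is a group of microRNA (miRNA) hairpins that lie side by side on mouse chromosome 3. Its members were taken by name and position, as the features entered as Mir302a, Mir302b, Mir302c, Mir302d and Mir367, which gave 5 of the 1638 features listed. Their levels were read in small RNA-seq (smRNA-seq) data from 1 library of wild-type E14 cells, a line of mouse embryonic stem cells (mESCs), and 1 library of wild-type C57Bl/6J male germ cells at stage E15.5, in fetal life, called prospermatogonia here after the paper. The labels of the latter name them primordial germ cells. By the methods, mESCs were grown without feeders in medium with LIF, a MEK inhibitor and a GSK3 inhibitor, and the germ cells came from matings of females that carried an Oct-4/GFP transgene. Whether the smRNA library came from that same mESC culture, and how many embryos were pooled, is not given in the sources used here. Strain, culture and cell type differ together between the libraries and cannot be told apart.

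A miRNA is cut as a hairpin from a longer transcript, and 1 arm of the hairpin (5p or 3p) then guides repression of mRNAs that match its seed, which is bases 2 to 8. The Mir302 hairpins and Mir367 are made from 1 shared transcript and are known as miRNAs of pluripotent cells, above all of the epiblast and of primed stem cells, whereas the Mir290 to Mir295 cluster is the chief miRNA cluster of mESCs. Both clusters carry a shared seed that is known to act on regulators of the cell cycle. Mir367 has a different seed, that of Mir25 and Mir92.

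The cluster spanned 580 bases on the plus strand of GRCm38. Mir302b came first (chr3:127545228-127545301), followed by Mir302c (chr3:127545363-127545430), Mir302a (chr3:127545496-127545564), Mir302d (chr3:127545624-127545689) and Mir367 (chr3:127545733-127545807). The hairpins were 66 to 75 bases long and 43 to 65 bases apart, and all 5 had exactly the position of the GENCODE miRNA gene of the same name. All 5 lay inside Larp7 (chr3:127536714-127553349), a gene of the minus strand that encodes the 7SK RNA-binding protein LARP7, and overlapped none of its exons. They are thus antisense to intronic sequence. No other listed feature lay within 10 kb, and the nearest was 2138 kb away.

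The mature sequences of RefSeq (GRCm38.p6) are shown because the seed divides the members. All 5 members had a hairpin entry there. The 3p arms that follow are written 5′ to 3′ with the seed in capitals. The sequences used here held no 3p arm of Mir302a. Its 3p seed was therefore not read, and Mir302a is in none of the counts by 3p seed.
miR-302b-3p: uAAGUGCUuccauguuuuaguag
miR-302d-3p: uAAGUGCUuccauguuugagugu
miR-302c-3p: aAGUGCUUccauguuucagugg
miR-367-3p: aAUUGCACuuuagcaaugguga

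The arms of Mir302b and Mir302d had the same seed and were identical at 20 of 23 bases. The arm of Mir302c was annotated to start 1 base later. Its letters matched those of miR-302b-3p from base 2 at 20 of 22 bases, but its seed as annotated was shifted by 1 base. The seed of Mir302b and Mir302d, AAGUGCU, stood at bases 2 to 8 of 5 of 1679 mature miRNAs (0.298%), and the others were 3 members of the Mir290 to Mir295 cluster.
miR-291a-3p: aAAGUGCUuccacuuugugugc
miR-294-3p: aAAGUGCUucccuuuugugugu
miR-295-3p: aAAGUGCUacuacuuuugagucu

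On the 5p side Mir302b, Mir302c and Mir302d shared the seed CUUUAAC, which 3 of the 1679 mature miRNAs held, and Mir302a differed from it.
miR-302b-5p: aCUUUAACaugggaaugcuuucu
miR-302c-5p: gCUUUAACaugggguuaccugc
miR-302d-5p: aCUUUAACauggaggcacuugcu
miR-302a-5p: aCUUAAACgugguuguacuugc

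The values were deposited per hairpin, so that 5p and 3p reads could not be separated. For Mir302d, the member with the most reads, both arms are marked in capitals within the hairpin to show how much of each feature can give a read.
Mir302d: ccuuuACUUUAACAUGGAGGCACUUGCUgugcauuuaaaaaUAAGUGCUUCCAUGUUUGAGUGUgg

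The deposited values were log2 values, and in linear form each was a whole number of reads (within 0.0165 reads) times a constant of its library, with the column minimum taken as no reads. The mESC library held 110455 reads on miRNA features and the prospermatogonia library 155237. If the values are log2 RPM (reads per 1000000 reads of the library), the constants imply 449643 reads for the mESC library and 2869578 for that of prospermatogonia, which was thus sequenced 6.38-fold deeper. A count of 0 allows up to 3 reads (a one-sided 95% limit), which came to 6.67 RPM for mESCs and 1.05 RPM for prospermatogonia. On the implied totals, miRNA features held 24.6% of the mESC reads and 5.41% of those of prospermatogonia. All listed features together were 4.54-fold higher in mESCs by RPM, and every fold by RPM includes this difference. Folds are therefore given for RPM and, independent of the implied totals, for the share of miRNA reads. Intervals are 95% intervals of the reads (exact for levels and folds, Wilson for shares) and cover counting error only, since amplified reads without molecular identifiers are not independent molecules. With a single library for each cell type, no difference has a replicate check and none was tested.

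In mESCs all 5 members had reads, 240 in total. This was 534 RPM, or 0.217% of the miRNA reads (0.192% to 0.247%). In prospermatogonia the cluster had 4 reads, which was 1.39 RPM or 0.00258% of the miRNA reads (0.00100% to 0.00663%). The summed level was thus 383-fold higher in mESCs as RPM (148-fold to 1417-fold) and 84.3-fold higher as a share of miRNA reads (32.5-fold to 312-fold). Had prospermatogonia had the mESC level, 1532 reads would have fallen on the cluster by RPM, or 337 by the share of miRNA reads. Fewer expressing cells and less RNA per cell cannot be told apart in such bulk samples.

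Mir302d had 105 reads in mESCs, 234 RPM (191 to 283), and 3 reads in prospermatogonia, 1.05 RPM (0.216 to 3.06). It was 223-fold higher in mESCs by RPM (74.4-fold to 1101-fold) and 49.2-fold higher by its share of miRNA reads (16.4-fold to 242-fold). Among all listed features it ranked 74 in mESCs.

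Mir302a had 80 reads in mESCs, 178 RPM (141 to 221), and 1 read in prospermatogonia, 0.348 RPM (0.00882 to 1.94). The fold was 511 by RPM (89.0 to 20415) and 112 by the share of miRNA reads (19.6 to 4496), and the width of these intervals comes from the single read. Its rank in mESCs was 81.

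Mir302b had 44 reads in mESCs, 97.9 RPM (71.1 to 131), and none in prospermatogonia. Against the limit of 3 reads it was at least 93.6-fold higher in mESCs by RPM and at least 20.6-fold higher by the share of miRNA reads. Such bounds take the mESC reads as counted, without their error. For Mir302d, Mir302a and Mir302b alike, the mESC interval lay above the interval or limit of prospermatogonia.

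Mir302c had 7 reads in mESCs, 15.6 RPM (6.26 to 32.1), and none in prospermatogonia, at least 14.9-fold higher by RPM and at least 3.28-fold higher by the share of miRNA reads. Mir367, the member with the other seed, had 4 reads in mESCs, 8.90 RPM (2.42 to 22.8), and none in prospermatogonia. Against the limit of 3 reads its 4 reads gave a level at least 8.51-fold higher in mESCs by RPM. By the share of miRNA reads the same bound was 1.87-fold. Both bounds leave out the error of the 4 mESC reads, and a difference of Mir367 by this share was not shown at this depth. At the mESC share of miRNA reads, prospermatogonia would have held only 5.62 reads of Mir367 and 9.84 of Mir302c, so that these 2 members say little at this depth.

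**Figure D1:**
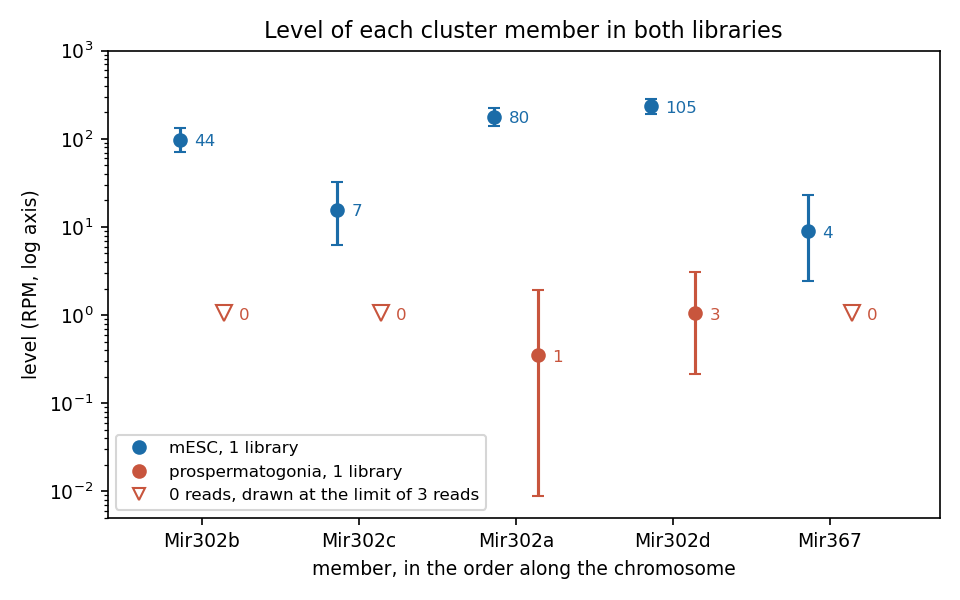
Level of each member as RPM on a log axis, in mESCs (blue) and prospermatogonia (red), 1 library each, with the number of reads beside each point and exact 95% counting intervals as bars; open triangles mark 0 reads and are drawn at the limit of 3 reads. The mESC points range from 8.90 to 234 RPM, and no prospermatogonia point lies above 1.05 RPM.

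Within the cluster, Mir302d held 43.8% of the mESC reads (37.6% to 50.1%), Mir302a 33.3% (27.7% to 39.5%) and Mir302b 18.3% (13.9% to 23.7%). Mir302c held 2.92% (1.42% to 5.90%) and Mir367 1.67% (0.650% to 4.21%). Mir302d and Mir302a did not differ beyond counting error, since Mir302d had 56.8% of the reads of the pair (49.6% to 63.7%). Mir302a exceeded Mir302b, with 64.5% of their reads (55.8% to 72.4%), and Mir302b exceeded Mir302c 6.29-fold. Mir302c and Mir367 did not differ beyond counting error (63.6%, 35.4% to 84.8%). The order was the same per 100 bases of hairpin, from 159 reads for Mir302d to 5.33 for Mir367. The 4 reads of prospermatogonia fell on Mir302d and Mir302a, the members with most reads in mESCs.

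The levels did not follow the order along the chromosome. Mir302c, between Mir302b and Mir302a, had 6.29-fold fewer reads than the former, although all hairpins lie on the same strand within 580 bases. The hairpins of Mir302a and Mir302b shared a stretch of 20 bases, Mir302d shared 17 and Mir302c 16 with Mir302a, and Mir367 shared no more than 9 with any other member. Reads no longer than such a stretch cannot be assigned to 1 member, and how they were counted is not given in the sources used here. No member shared more than 13 bases with any hairpin outside the cluster, among 1005 hairpins compared, so that the sum over the cluster is less open to this than its division.

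**Figure D2:**
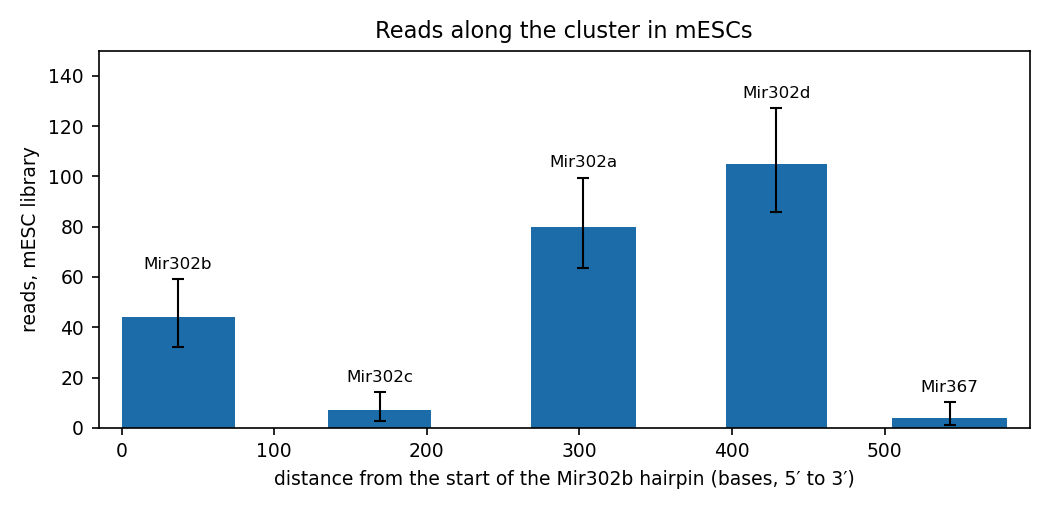
Reads of each hairpin in the mESC library (bars, with exact 95% counting intervals), placed by distance in bases from the start of Mir302b, with the bar as wide as the hairpin. Mir302a and Mir302d stand at 80 and 105 reads, between the low members Mir302c with 7 and Mir367 with 4.

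The members were then set beside all listed features. Ratios of prospermatogonia over mESC were taken on the log2(RPM + 1) scale, which understates the change of low features. A level of 10 RPM was reached in either library by 203 features. Of these, 164 (80.8%) lay below the mESC level by 2-fold or more in prospermatogonia, and 20 exceeded it by as much. Of the features past this fold, 10.9% were higher, against 33.6% when libraries were scaled to their miRNA reads (81 lower, 41 higher). Of the 5 members, 4 passed the filter, Mir367 did not, and all 4 were at least 2-fold lower. Members that pass only through their mESC level and have almost no reads in prospermatogonia must be lower, so this count adds nothing to the values.

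The log2 ratio was -7.05 for Mir302a, -6.84 for Mir302d, -6.63 for Mir302b and -4.05 for Mir302c. In the order of the 203 features from the lowest ratio, they stood at places 2, 4, 6 and 43. The median of these 4 members was -6.73, beside -2.52 for all 203 features. These members passed the filter only through their mESC level, so their places and median add nothing to the values. The filter is met at fewer reads in the mESC library, and a feature with few mESC reads cannot reach a low ratio on this scale.

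A comparison at like numbers of mESC reads was added after the values were seen. Of the 29 other features with 44 to 105 reads in mESCs, the range of Mir302b, Mir302a and Mir302d, 3 had 3 reads or fewer in prospermatogonia, and the median was 41 reads, with a highest value of 517. The 3 were Mir34a, with 65 reads in mESCs and 2 in prospermatogonia, Mir200a, with 71 and 2, and Mir582, with 51 and 0. Of all 105 features with 44 mESC reads or more, 7.62% (8 features) had 3 reads or fewer in prospermatogonia. These were the 3 members, the same 3 others, Mir291b and Mir708. Both cutoffs are values of the members, 44 mESC reads of Mir302b and 3 prospermatogonia reads of Mir302d. The 3 members thus had to be among the 8. At the range of the low members Mir302c and Mir367, 4 to 7 mESC reads, 5 of 38 other features had no read in prospermatogonia, and the median was 4 reads.

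The features whose pair of levels was most like the median of the members, by Euclidean distance on the log2(RPM + 1) scale over the 2 libraries, were Mir582 (distance 0.211), Mir34a (0.945), Mir214 (0.998), Mir200a (1.03) and Mir145 (1.35). Mir34a is a known target of p53, and Mir200a belongs to a family of epithelial cells. Mir214 had 28 reads in mESCs and 2 in prospermatogonia, and Mir145 had 17 and 0. Mir214 and Mir145 are among the fibroblast and mesenchyme features read below. With 2 libraries such likeness describes only these levels.

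**Figure D3:**
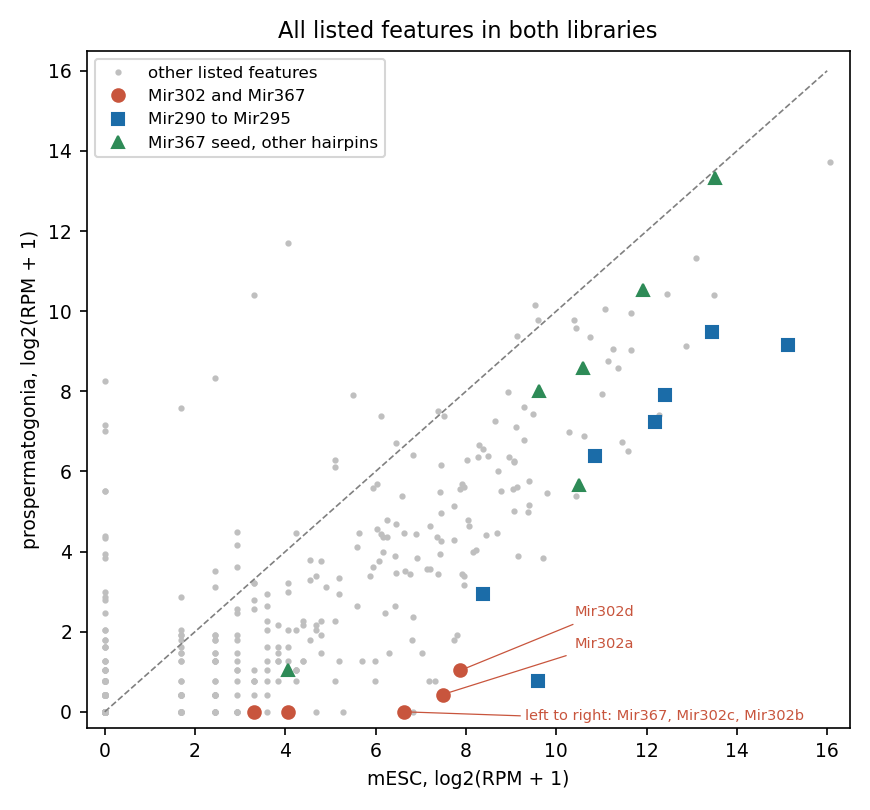
Each listed feature by its level in mESCs (x axis) and in prospermatogonia (y axis), both as log2(RPM + 1), with the dashed line at equal levels. The 5 members (red circles) lie along or near the bottom edge, and Mir291b is the 1 member of the Mir290 to Mir295 cluster (blue squares) that lies as low, at 2 prospermatogonia reads.

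The Mir290 to Mir295 cluster, which shares the AAGUGCU seed in 3 of its members, was set beside the Mir302 cluster because both are pluripotency clusters. All 7 of its members were listed. They had 149 to 16131 reads in mESCs (median 2109) and 2 to 2058 in prospermatogonia (median 429). The summed level was 34.2-fold higher in mESCs by RPM (33.2-fold to 35.2-fold) and 7.53-fold higher by the share of miRNA reads (7.30-fold to 7.76-fold). Both intervals lie below those of the Mir302 cluster. Expressed without any scaling, the Mir302 cluster held 0.880% of the reads of both clusters in mESCs (0.776% to 0.998%) and 0.0792% in prospermatogonia (0.0308% to 0.203%). The Mir302 cluster was thus the minor cluster in both libraries, with a lower portion in prospermatogonia. The difference exceeds counting error, and whether it exceeds the spread between libraries is not known.

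The 3 hairpins outside the cluster that carry the Mir302 seed itself all kept reads in prospermatogonia. Mir295 had 16131 reads in mESCs and 1624 in prospermatogonia, Mir291a had 2430 and 681, and Mir294 had 837 and 235. Together they were 48.7-fold higher in mESCs by RPM (46.8-fold to 50.8-fold). Mir302b and Mir302d, with the same seed, made up 0.762% of the reads on the 5 hairpins listed with this seed in mESCs (0.650% to 0.894%) and 0.118% in prospermatogonia (0.0401% to 0.346%). Set against the same 3 hairpins, the whole Mir302 cluster, Mir302a included, had a share of 1.22% in mESCs (1.08% to 1.39%) and of 0.157% in prospermatogonia (0.0612% to 0.404%). These are reads of whole hairpins, and those of the arm with the seed are not known.

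The 6 letters AAGUGC of the seed also occur 1 base further along, at bases 3 to 8, in miR-17-5p and miR-93-5p, whose families are known to promote proliferation. Within bases 1 to 8, this core was found in 18 of 1679 mature miRNAs (1.07%). It is in capitals here.
miR-302b-3p: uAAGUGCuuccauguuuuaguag
miR-302c-3p: AAGUGCuuccauguuucagugg
miR-17-5p: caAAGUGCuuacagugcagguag
miR-93-5p: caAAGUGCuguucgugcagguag

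Hairpins with the core at bases 3 to 8 were Mir17, Mir20a, Mir20b, Mir93, Mir106a, Mir106b and Mir105, a group chosen after the values were seen. Mir105 had no read in either library. The others had 117 to 1011 reads in mESCs and 89 to 1238 in prospermatogonia. Their sum was 6.06-fold higher in mESCs by RPM (5.72-fold to 6.43-fold) and 1.33-fold higher by the share of miRNA reads (1.26-fold to 1.42-fold). The Mir302 cluster, at 84.3-fold by the same share, differed from them beyond counting error.

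Mir367 shares its seed, AUUGCAC, with Mir25, Mir32, Mir92-1, Mir92-2, Mir92b and Mir363. The seed is in capitals in the sequences shown, which are those with the most reads in either library.
miR-92a-3p: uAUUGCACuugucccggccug
miR-25-3p: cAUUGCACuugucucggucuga
The sum over these 6 hairpins came to 8696 reads in mESCs and to 35800 reads in prospermatogonia, of which 29587 were from Mir92-1. Their share of all miRNA reads was 7.87% for mESCs (7.72% to 8.03%) and 23.1% for prospermatogonia (22.9% to 23.3%). As RPM their sum was 1.55-fold higher in mESCs (1.51-fold to 1.59-fold), so that its direction depends on the scaling. Mir92-1 and Mir92-2 give the same mature miRNA, and the division of its reads between them is uncertain. Mir367 contributed 0.0460% of the reads, both arms included, on hairpins with this seed in mESCs (0.0179% to 0.118%). Its 0 reads in prospermatogonia allow up to 0.00838% there by the one-sided limit of 3 reads, which is not a Wilson interval. With 4 and 0 reads of Mir367, and a sum that is mostly Mir92-1 in prospermatogonia, these shares say little of Mir367 itself. Mir363, with 657 reads in mESCs and 142 in prospermatogonia, and Mir32, with 7 and 3, were the seed partners with the highest ratios of mESC to prospermatogonia RPM.

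**Figure D4:**
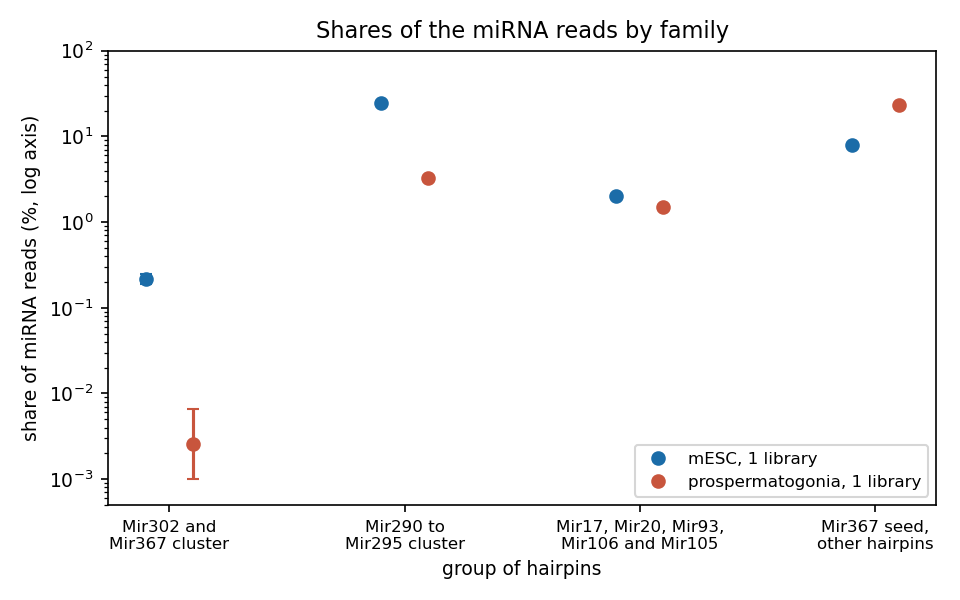
Share of the miRNA reads held by each group of hairpins in mESCs (blue) and prospermatogonia (red), in percent on a log axis, with 95% Wilson intervals that are mostly smaller than the points. The Mir302 and Mir367 cluster goes from 0.217% to 0.00258%, the Mir290 to Mir295 cluster from 24.5% to 3.25%, and hairpins with the Mir367 seed from 7.87% to 23.1%.

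Markers of other cells were read in both libraries. The 7 features of the Mir290 to Mir295 cluster, taken as markers of pluripotent cells, all had reads in both libraries, and held 24.5% of the miRNA reads in mESCs and 3.25% in prospermatogonia. Of 6 fibroblast and mesenchyme features, 4 had reads in mESCs, 3653 in total or 3.31% of the miRNA reads, and 3 had reads in prospermatogonia, 748 in total or 0.482%. Mir21 had 2215 reads in mESCs, Mir143 had 1393, and both Mir199a features were at 0 in both libraries. Reads that match both Mir199a features cannot be assigned to 1 of them, and how they were counted is not given. These values of 0 therefore do not show that the miRNA was absent. Mirlet7a-1 and Mirlet7a-2, also numbered as copies of 1 miRNA, were at 0 in both libraries too, whereas Mir92-1 and Mir92-2 had reads. Of 5 blood and endothelial features, Mir142 and Mir126 held the 655 reads found in mESCs, which were 0.593% of the miRNA reads. In prospermatogonia 165 reads (0.106%) fell on these and, with 1 read, on Mir451, while Mir144 and Mir223 were at 0 in both libraries. By the share of miRNA reads the summed fibroblast markers were thus 6.86-fold and the blood markers 5.58-fold higher in mESCs, in the same direction as the cluster, and their part in the result was not tested. Of the 2 features of gonadal somatic cells, Mir202 had 57 reads in prospermatogonia (19.9 RPM) and none in mESCs. Mir140 had 558 reads in prospermatogonia and 280 in mESCs. By RPM Mir140 was 3.20-fold higher in mESCs, whereas its share of miRNA reads was 0.253% in mESCs and 0.359% in prospermatogonia. The direction of Mir140 thus depends on the scaling.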

How the data were processed

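Small RNA was sequenced from mESCs and E15.5 prospermatogonia, 1 library each, grouped by sample title. The libraries were made with a small RNA kit and size-selected on a gel. The submitters' processing notes name Trim Galore 0.4.1, Bowtie and GRCm38. The methods of the paper name piPipes and mm9, and positions here are on GRCm38, since the start and end of 1300 of 1638 features, all 5 members included, equalled those of miRNA genes in GENCODE vM21. The authors deposited 1 log2 value per feature and library. Log2 RPM is the unit given for their RNA-seq values exported from SeqMonk, and for smRNA values it is an assumption. The quantification step, its use of strand and its handling of reads with several matches are not given in the sources used here.

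Reads were recovered by dividing each linear value by the column minimum over 0.9, with the minimum set to 0 reads. Exact Poisson, exact conditional binomial and Wilson intervals (95%) were computed. No test across conditions was possible with 1 library each, and no count model was run. Named features were the members, the Mir290 to Mir295 cluster, features sharing the 3p seeds, the 5 nearest in level and listed features within 10 kb. Others were named after their values were seen. The members and lists were chosen with earlier results of these data known. Sequences came from RefSeq (GRCm38.p6), in which 562 features were matched by position or name. Read recovery was checked on simulated data. Alternatives were other pseudocounts, filters, thresholds, denominators and scalings. Scripts ran in Python 3.11.15 with scipy 1.17.1 for intervals, pandas 2.3.3 and numpy 2.4.6 for tables, and matplotlib 3.10.9 for plots.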

Additional observations from a re-analysis of the deposited data

How the results depend on the processing

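Depth limits Mir302c and Mir367, whose mESC levels lie near 6.67 RPM, the limit of 3 reads there. No paired analysis was possible because no result comes from a test, there being a single library on either side, and for the same reason no library could be left out. The summed log2 ratio of the Mir302 cluster, -8.58 (prospermatogonia to mESC), was -6.40 when scaled to all miRNA reads and -6.21 when scaled to the median ratio of 111 features. It was -7.80 with a pseudocount of 1 RPM on the sum and -7.84 with the column minimum kept as deposited, which also gave a share of 0.00428% in prospermatogonia. With 4 reads there, the size of the ratio thus depends in part on how absent reads are entered. Under the scalings to miRNA reads and to the median ratio, in this order, the ratio of Mir302a was -6.11 and -6.00. That of Mir302d was -5.35 and -5.19. The ratios of Mir302b and Mir302c did not move, because only the prospermatogonia values were scaled and theirs were 0 reads. In the same order the hairpins with the Mir302 seed outside the cluster went from -5.61 to -3.42 and -3.23, and those with the Mir367 seed turned from -0.63 to 1.55 and 1.74. The log2 shift that these scalings remove from each summed ratio was -2.18 and -2.37. The share of the cluster was 0.0534% in mESCs and 0.000139% in prospermatogonia when taken of the implied library totals, which are larger by construction. The number of features at least 2-fold lower, 164, was 81 and 74 under those scalings and 91 with 10 RPM or more in both libraries, a filter that no member passed and that gave no value for them. The count of members lower was fixed by the filter and says nothing of stability.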

Other observations

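Mir291b stood apart from its own cluster in a way that resembled the Mir302 members. It had 350 reads in mESCs and 2 in prospermatogonia, a log2 ratio of -8.84, whereas the other 6 members of the Mir290 to Mir295 cluster had 19 to 2058 reads in prospermatogonia. Mir291a, a member of the same cluster with the same core of 6 bases, had 2430 reads in mESCs and 681 in prospermatogonia. This was noticed in the data, has no replicate check and was not tested.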
